A study of Homo sapiens with 16 samples.

Results

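The 45 genes described here encode the human centromere, the kinetochore built on it and the spindle assembly checkpoint that reads its state. They were listed by symbol out of 62069 genes in the count table. The rule itself uses no measured value, but the list was chosen with earlier results of these data known. Each symbol matched 1 Ensembl gene identifier, and all 45 passed the filter on low counts, among 13526 genes tested. 42 of the 45 were at the filter's count level in all 16 libraries, and CENPA, SPC25 and INCENP were below it in at least 1 library.

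RNA was sequenced from IMR90 ER:RAS cells, human lung fibroblasts that carry an oncogenic RAS protein fused to an oestrogen receptor domain, so that 4-hydroxytamoxifen (4OHT) switches RAS on and the cells become senescent. All cells were at passage 15 and were collected at day 6. The series followed what knockdown of AHCY, the enzyme that hydrolyses S-adenosylhomocysteine, does to the senescence transcriptome. The groups, of 4 libraries each, were cells with the hairpin shAHCY_2 and 100 nM 4OHT, cells with the hairpin shAHCY_4 and 100 nM 4OHT, senescent EV cells with 100 nM 4OHT (EV_4OHT) and non-senescent EV cells (EV). All 4 groups carry the ER:RAS fusion. Cells without the fusion given 4OHT, and hairpin cells without 4OHT, were not analysed here, so an effect of 4OHT apart from RAS, and of a hairpin apart from senescence, cannot be told apart. Whether the 4 libraries of each group stem from separate cultures is not stated in the labels. The p-values therefore measure library-to-library spread only, and that spread may be technical.

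A kinetochore is assembled on chromatin marked by the histone variant CENP-A. An inner layer, the constitutive centromere-associated network, sits on that chromatin through the cell cycle, and in mitosis it carries an outer layer that binds spindle microtubules. Unattached kinetochores turn on the spindle checkpoint, which holds back the anaphase-promoting complex (APC/C) until all chromosomes are attached. Many of these genes are transcribed in the G2 and M phases of dividing cells, and senescent fibroblasts have left the cell cycle. In RNA from whole cultures, fewer cells that express a gene and less RNA per cell cannot be told apart.

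Libraries held 8236199 to 18235787 counts. AHCY, the target of the hairpins, averaged 18.5 ± 4.54 CPM in shAHCY_2 cells, 14.7 ± 2.19 in shAHCY_4 cells, 164 ± 8.08 in EV_4OHT cells and 114 ± 11.3 in EV cells (SD, n = 4 each), where CPM is the count scaled to library size with TMM factors. shAHCY_2 replicate 59 lay farthest from its own group, with a root mean square difference of 0.499 on the log2 scale, against 0.318 to 0.404 for the other 15 libraries. Set against the average over every library of the series, its log2 levels were lower the higher the GC content of a gene (Spearman's rho -0.535 over genes). The next lowest rho was -0.266, in EV replicate 51, which enters the EV means used below. Both values can include differences between groups. Of the 4 shAHCY_2 libraries, replicate 59 was the highest for 21 members, whose median GC content was 39.4%. It was the lowest for 16, whose median was 52.8%. The fibroblast markers summed to 4813 to 5291 CPM in shAHCY_2, 4690 to 5319 in shAHCY_4, 4734 to 4909 in EV_4OHT and 10600 to 12270 in EV libraries, and 7 of the 8 were lower in EV_4OHT than in EV cells. What part that fall has in the results was not tested. The endothelial markers PECAM1 and CDH5 had no count in any library, the blood markers PTPRC and CD68 summed to at most 1.05 CPM with no PTPRC count in EV libraries, and the epithelial markers to between 41.6 and 57.97 CPM. KRT18 was the most abundant of these, at a mean of 45.95 CPM in shAHCY_2, 42.8 in shAHCY_4, 44.7 in EV_4OHT and 34.1 in EV cells.

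Senescent EV cells had less RNA of nearly the whole assembly. Of the 45 genes, 40 were lower in EV_4OHT than in EV cells and 0 were higher (edgeR's quasi-likelihood test, adjusted p under 0.05 by Benjamini-Hochberg over all genes tested, the rule by which genes are called throughout), where 26.8% of all genes tested were lower and 26.7% higher. At an unadjusted p under 0.05, 41 were lower and 0 higher, and DESeq2 gave the same count of 40 lower and 0 higher. The median log2 fold change was -2.24, against -0.02 over all genes tested, and 30 members differed at least 2-fold. The fall ran from -0.27 in BUB3 to -4.19 in SPC25. The 5 not called were CENPB, MAD1L1, CENPT, ZW10 and INCENP. Summed over the 45 genes, the level was 822 to 889 CPM in EV_4OHT libraries, against 2005 to 2336 CPM in EV libraries. BUB3, with the smallest called fall, weighs heavily in these sums, at a mean of 262 CPM in EV_4OHT and 315 CPM in EV cells.

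**Figure D1:**
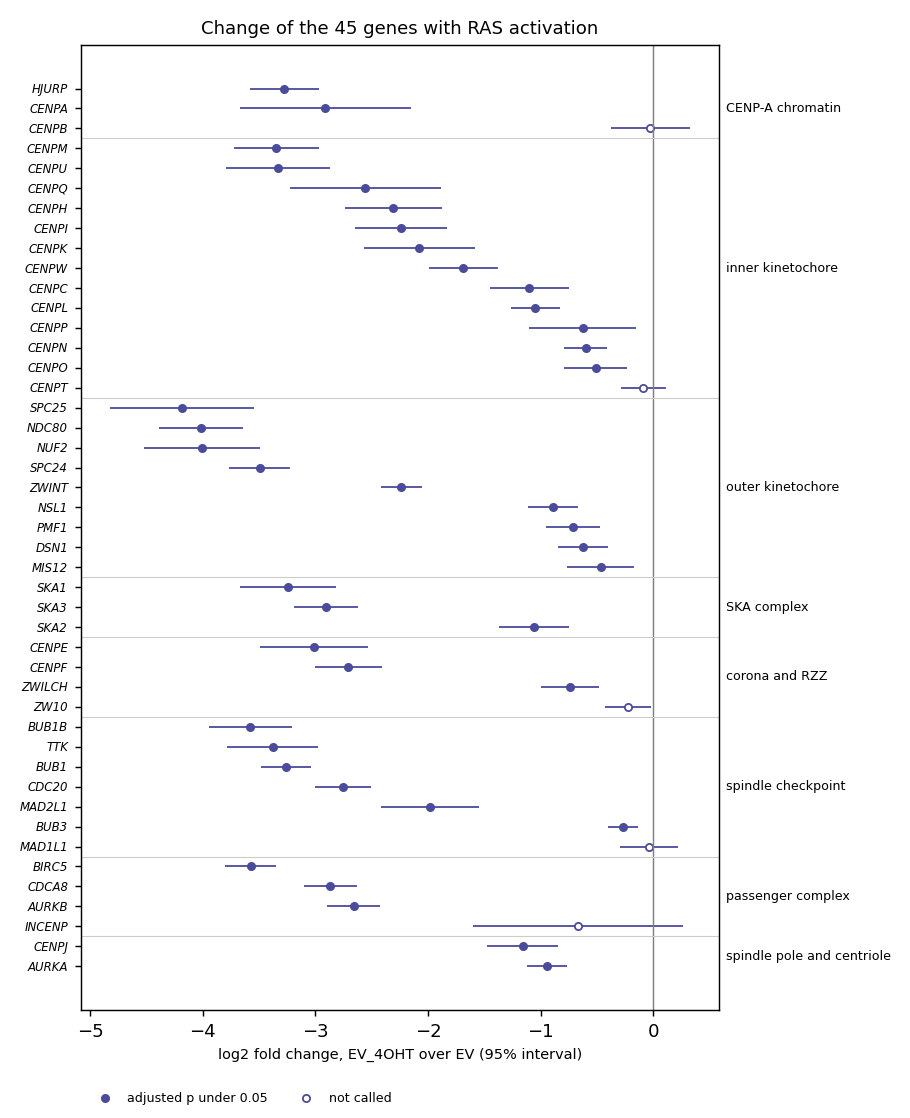
Log2 fold change of each of the 45 genes in EV_4OHT over EV cells (horizontal axis), grouped by role, with 95% confidence intervals from edgeR and filled points for an adjusted p under 0.05. All 45 estimates lie below 0, from -0.02 in CENPB to -4.19 in SPC25, and 40 points are filled.

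Cells with either AHCY hairpin held more of that RNA than senescent EV cells. Against EV_4OHT cells, 31 of the 45 genes were higher and 0 lower in shAHCY_2 cells, where 3.91% of all genes tested were higher and 3.07% lower. In shAHCY_4 cells 30 were higher and 0 lower than in EV_4OHT cells, where 7.58% of all genes tested were higher and 6.86% lower. At an unadjusted p under 0.05, 39 members were higher and 0 lower in shAHCY_2 cells, and 33 were higher and 0 lower in shAHCY_4 cells. DESeq2 gave 32 members higher and 0 lower with shAHCY_2, and 32 higher and 0 lower with shAHCY_4. The median log2 fold change of the members was 1 with shAHCY_2 and 0.83 with shAHCY_4, against 0.01 over all genes tested in each comparison. These comparisons share the 4 EV_4OHT libraries, so the values of the hairpins are given side by side and are not independent of each other. The summed level of the 45 genes was 1206 to 1324 CPM in shAHCY_2 and 1202 to 1242 CPM in shAHCY_4 libraries. Both ranges lie above every EV_4OHT library and below every EV library. BUB3 again held much of the sum, at a mean of 290 CPM in shAHCY_2 and 303 CPM in shAHCY_4 cells.

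**Figure D2:**
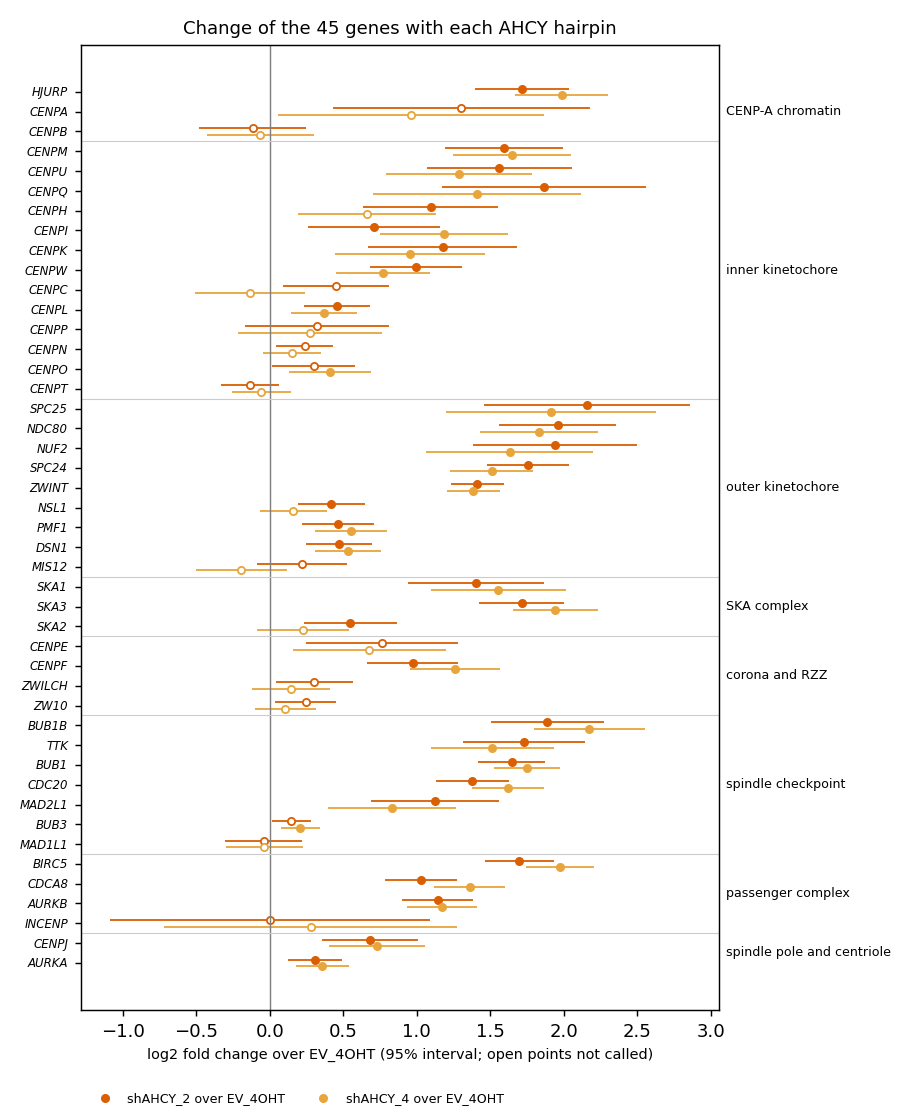
Log2 fold change of each gene in shAHCY_2 and in shAHCY_4 cells, each over the same EV_4OHT cells (horizontal axis), with 95% confidence intervals from edgeR and filled points for an adjusted p under 0.05. With shAHCY_2 31 points are filled and with shAHCY_4 30, all of them to the right of 0.

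The promoters of members at both ends of this range are shown because the cell-cycle genes homology region (CHR) and E2F sites are the elements through which the DREAM and RB complexes are known to hold such genes off in cells that do not divide. Members with a low mean level over all libraries were left out of the choice, among them SPC25 (mean log2 CPM 2.56), which had the largest fall. BIRC5, with a log2 fold change of -3.58, has no promoter window. Both strands were searched. The CHR was sought as TTTGAA in its usual form and as TTCGAA in its variant form, and the CCAAT box, which often stands near a CHR, by the letters in its name. The E2F element was sought as TTCCCGC in its usual form, and in variant forms with TTCGCGC as the letters of one of them, with TTGCCGC as the letters of another and with TTGGCGC as the letters of the last. The sequences run from 200 bases before to 30 bases after the annotated start, from RefSeq on GRCh38.p14, and capitals mark those letters on either strand. NDC80 at chr18:2571357-2571586 (plus strand), NUF2 at chr1:163321754-163321983 (plus strand) and BUB1B at chr15:40160869-40161098 (plus strand) fell by 4.02, 4.00 and 3.58 on the log2 scale. CENPB at chr20:3786711-3786940 (minus strand), MAD1L1 at chr7:2232916-2233145 (minus strand), CENPT at chr16:67847664-67847893 (minus strand) and ZW10 at chr11:113773663-113773892 (minus strand) are the members with the smallest estimates.
NDC80: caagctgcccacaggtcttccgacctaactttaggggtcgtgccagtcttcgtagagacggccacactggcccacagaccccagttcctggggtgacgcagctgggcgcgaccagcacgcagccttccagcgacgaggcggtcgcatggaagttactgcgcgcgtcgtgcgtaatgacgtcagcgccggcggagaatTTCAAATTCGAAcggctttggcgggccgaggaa
NUF2: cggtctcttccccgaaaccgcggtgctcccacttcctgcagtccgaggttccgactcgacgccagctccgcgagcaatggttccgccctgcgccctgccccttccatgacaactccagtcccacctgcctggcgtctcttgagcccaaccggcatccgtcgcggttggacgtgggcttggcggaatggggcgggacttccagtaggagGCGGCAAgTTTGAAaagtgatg
BUB1B: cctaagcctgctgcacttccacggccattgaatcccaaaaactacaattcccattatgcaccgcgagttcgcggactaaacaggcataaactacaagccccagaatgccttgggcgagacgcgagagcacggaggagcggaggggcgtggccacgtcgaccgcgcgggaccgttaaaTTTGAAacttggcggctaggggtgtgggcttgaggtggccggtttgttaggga
CENPB: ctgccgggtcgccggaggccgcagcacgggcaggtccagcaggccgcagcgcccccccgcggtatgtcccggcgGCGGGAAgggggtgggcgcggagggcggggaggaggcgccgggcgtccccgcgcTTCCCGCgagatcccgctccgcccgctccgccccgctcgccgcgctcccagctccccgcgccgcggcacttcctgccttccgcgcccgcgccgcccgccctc
MAD1L1: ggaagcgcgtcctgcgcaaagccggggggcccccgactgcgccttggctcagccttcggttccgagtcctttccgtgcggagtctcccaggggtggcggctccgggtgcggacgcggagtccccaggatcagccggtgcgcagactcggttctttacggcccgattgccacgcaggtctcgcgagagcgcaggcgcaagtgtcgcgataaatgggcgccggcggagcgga
CENPT: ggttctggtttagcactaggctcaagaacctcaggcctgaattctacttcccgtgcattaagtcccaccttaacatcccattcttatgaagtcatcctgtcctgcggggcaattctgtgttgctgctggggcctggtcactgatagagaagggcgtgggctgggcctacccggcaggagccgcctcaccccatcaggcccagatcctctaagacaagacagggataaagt
ZW10: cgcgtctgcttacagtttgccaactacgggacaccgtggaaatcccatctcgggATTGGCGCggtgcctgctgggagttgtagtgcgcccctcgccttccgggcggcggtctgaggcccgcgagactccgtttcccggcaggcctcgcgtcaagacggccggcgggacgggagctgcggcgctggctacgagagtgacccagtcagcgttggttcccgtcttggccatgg
Counted from the start at 1, NDC80 has a CHR beginning at -3 on the strand opposite to the gene. Its other CHR, at 4, is the variant TTCGAA, which reads the same on both strands. NUF2 has an E2F match at 9 and a CHR at 17, and BUB1B has a CHR at -23. CENPB has E2F letters on opposite strands at -126 and -72. ZW10 has CCAAT letters at -146 that overlap an E2F match at -145. The stretches of MAD1L1 and CENPT hold none of these letters. SPC25, which is not printed, has CHR, CCAAT and E2F letters in its window.

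Over the windows of 250 bases before to 50 after the start, held for 37 of the 45 members, 20 members (54.1%) had a CHR in at least 1 window, against 15.9% of 10343 tested genes and 19.5% of all 27305 genes with a window. CCAAT was in 24 members (64.9%), against 43.4% of tested and 39.7% of all genes. E2F letters were in 14 members (37.8%), against 24.6% of tested and 15.3% of all genes. A CHR and a CCAAT box stood together in 14 members (37.8%), against 8.7% of tested and 9.0% of all genes. Among members lower in EV_4OHT by at least 2 on the log2 scale, 13 of 20 with a window had a CHR (65.0%), against 4 of 13 (30.8%) among those lower by under 1, limits chosen after the values were seen. ZW10 is 1 of those 4, with CHR letters at -224, upstream of the printed stretch. At the same limits, E2F letters were in 8 of 20 (40.0%) against 5 of 13 (38.5%). CCAAT was in 13 of 20 (65.0%) against 7 of 13 (53.8%), and a CHR with a CCAAT box in 8 of 20 (40.0%) against 3 of 13 (23.1%). Of the 4 members lower by 1 to 2, 3 had a CHR, 4 had CCAAT and 1 had E2F letters. A match of letters is a description of the window, and binding was not measured.

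**Figure D3:**
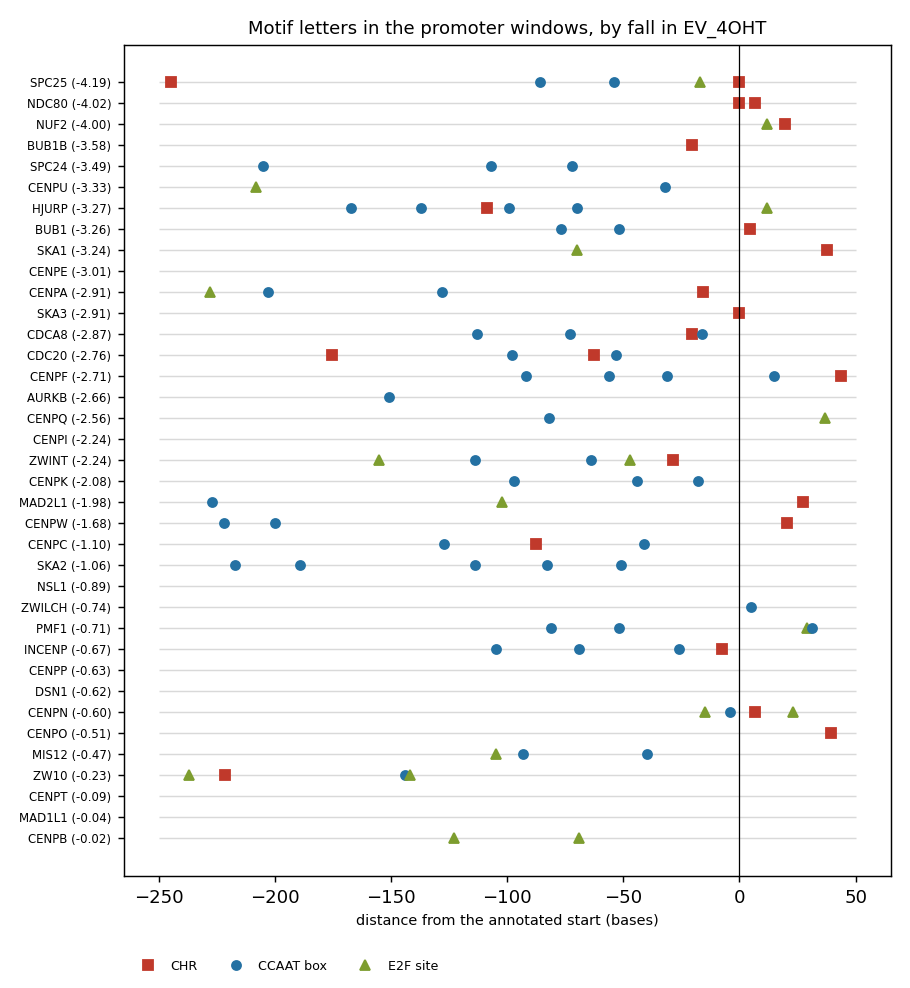
Distance of CHR, CCAAT and E2F letters from the annotated start in bases (horizontal axis), for the 37 members with a promoter window, 1 window each, ordered by their log2 fold change in EV_4OHT over EV cells, which is printed beside the name. CHR squares are denser among the strongly lowered genes in the upper rows, yet CENPE (-3.01) and CENPI (-2.24) have no match of any kind, like NSL1, DSN1, CENPT and MAD1L1 with smaller falls. The CENPP row is empty as well, because its only match, CCAAT letters, lies in a window that is not drawn.

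At centromeric chromatin, CENPA, the histone variant itself, and HJURP, the chaperone that loads it, fell in EV_4OHT cells. CENPB, which binds a sequence motif in the centromeric repeats, was called in none of the comparisons. Log2 fold changes are given ± SE. HJURP had 14.6, 14.6, 14.5 and 16.8 CPM in shAHCY_2 cells, 15.95, 21.2, 20.1 and 15.7 CPM in shAHCY_4 cells and 3.91, 3.46, 6.36 and 4.51 CPM in EV_4OHT cells, against 46.04, 43.97, 42.7 and 45.8 CPM in EV cells. Every hairpin library lay above every EV_4OHT library and below every EV library. Its log2 fold change was -3.28 ± 0.15 in EV_4OHT over EV cells, 1.72 ± 0.15 in shAHCY_2 over EV_4OHT and 1.99 ± 0.15 in shAHCY_4 over EV_4OHT cells (edgeR adjusted p = 2.07e-14, 9.38e-08 and 5.40e-09). CENPA was sparse, with 44 counts over the 4 shAHCY_2 libraries, 35 in shAHCY_4, 19 in EV_4OHT and 184 in EV. It had 0.925, 0.715, 0.830 and 1.09 CPM in shAHCY_2 cells, 0.609, 0.797, 0.666 and 0.719 CPM in shAHCY_4 cells and 0.166, 0.314, 0.402 and 0.526 CPM in EV_4OHT cells, against 1.99, 2.73, 4.28 and 1.91 CPM in EV cells. Both hairpin groups lay above every EV_4OHT library, yet the changes of 1.30 ± 0.42 and 0.96 ± 0.44 did not pass (edgeR adjusted p = 0.0635 and 0.153). CENPB had 8.88, 8.72, 5.50 and 6.90 CPM in shAHCY_2 cells, 6.58, 9.32, 7.92 and 7.25 CPM in shAHCY_4 cells and 8.90, 8.64, 6.83 and 8.35 CPM in EV_4OHT cells, against 8.65, 6.35, 7.88 and 10.3 CPM in EV cells. All 4 of these ranges overlap, and the log2 fold change in EV_4OHT over EV cells was -0.02 ± 0.17, which turned to 0.10 without EV replicate 52 and to 0.04 without EV_4OHT replicate 55.

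In the constitutive network of the inner kinetochore, 12 of 13 genes were lower in EV_4OHT than in EV cells, with a median log2 fold change of -1.68. Against EV_4OHT cells, 8 of the 13 were higher with shAHCY_2 and 8 with shAHCY_4, with medians of 0.71 and 0.66. Beside these counts, and those of the role groups below, stand the shares of all genes tested. These are 26.8% lower in EV_4OHT than in EV cells, and 3.91% and 7.58% higher with shAHCY_2 and shAHCY_4. CENPM, a subunit of the CENP-H/I/K/M assembly, fell the most. It had 6.48, 7.22, 6.43 and 6.28 CPM in shAHCY_2 cells, 4.51, 7.97, 8.14 and 6.47 CPM in shAHCY_4 cells and 2.58, 1.81, 2.68 and 1.65 CPM in EV_4OHT cells, against 20.8, 20.1, 23.6 and 24.5 CPM in EV cells. The libraries of both hairpins stand between EV_4OHT and EV without overlap. The log2 fold changes were -3.34 ± 0.18 in EV_4OHT over EV cells, 1.59 ± 0.20 with shAHCY_2 and 1.65 ± 0.19 with shAHCY_4 over EV_4OHT cells (edgeR adjusted p = 5.02e-13, 8.43e-06 and 2.98e-06). CENPT, whose histone-fold domain binds DNA and whose tail recruits the NDC80 complex, stood at the other end. It had 68.7, 60.7, 56.97 and 68.2 CPM in shAHCY_2 cells, 60.5, 70.5, 70.2 and 66.9 CPM in shAHCY_4 cells and 70.2, 75.7, 72.04 and 61.4 CPM in EV_4OHT cells, against 85.3, 69.4, 64.7 and 77.3 CPM in EV cells. The 4 ranges overlap, and its log2 fold change in EV_4OHT over EV cells was -0.09 ± 0.10. Its partner in the CENP-T/W/S/X assembly, CENPW, moved by -1.68 ± 0.15 in EV_4OHT over EV cells and by 0.996 ± 0.15 with shAHCY_2 and 0.77 ± 0.15 with shAHCY_4 over EV_4OHT cells.

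Members of the same inner assembly had falls of different size, given here as values with no test between genes. In CENP-H/I/K/M, the log2 fold change in EV_4OHT over EV cells was -2.31 for CENPH, -2.24 for CENPI and -2.08 for CENPK beside the -3.34 of CENPM. In CENP-O/P/Q/U, which binds the kinase PLK1 through CENPU, CENPU and CENPQ fell by 3.33 and 2.56, and CENPO and CENPP by 0.51 and 0.63. CENPN and CENPL, which form a dimer that reads the CENP-A nucleosome, fell by 0.60 and 1.04. CENPC, which ties CENP-A nucleosomes to the MIS12 complex, fell by 1.10. Its estimates against EV_4OHT cells were 0.45 ± 0.18 with shAHCY_2 and -0.14 ± 0.18 with shAHCY_4, neither of which passed, and the shAHCY_4 estimate was 0.014 without EV_4OHT replicate 54.

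Over EV_4OHT cells, CENPQ rose by 1.87 with shAHCY_2 and 1.41 with shAHCY_4. CENPU rose by 1.56 and 1.28 and CENPK by 1.176 and 0.95, all of them called. For each of these genes replicate 59 was the highest shAHCY_2 library and raises the shAHCY_2 estimate. It had 22.6 CPM of CENPQ against 6.15 to 8.70 in the other shAHCY_2 libraries. For CENPU it had 17.8 CPM against 6.69 to 10.9, and for CENPK 28.9 CPM against 12.98 to 14.95. CENPI rose by 0.71 with shAHCY_2 and 1.184 with shAHCY_4. The shAHCY_2 call of CENPI stood at an edgeR adjusted p of 0.0498 and was lost without any 1 of EV_4OHT replicates 53, 54, 55 and 56 or shAHCY_2 replicates 57, 58 and 60, at 0.53 to 0.77. It was lost as well with RLE (0.71) or upper-quartile (0.71) scaling, limma-voom (0.68), no low-count filter (0.71), the compared groups alone (0.71) and the GC trend removed (0.64), so that 13 of 17 alternatives ended it. CENPH rose by 1.10 with shAHCY_2, and its 0.66 with shAHCY_4 did not pass (edgeR adjusted p = 0.0538). CENPH was called with shAHCY_4 in 5 of 17 alternatives, among them DESeq2 and the GC trend removed, at 0.65 to 0.72. CENPL rose by 0.46 and 0.37, with the shAHCY_4 call lost without EV_4OHT replicate 54 or 56 or shAHCY_4 replicate 62, or with no low-count filter, at 0.30 to 0.36. CENPO had 0.30 with shAHCY_2, not called, and 0.41 with shAHCY_4, called, and this call was lost without any 1 of EV_4OHT replicates 54, 55 and 56 or shAHCY_4 replicates 62, 63 and 64, and with upper-quartile scaling or no low-count filter, at 0.32 to 0.46. CENPN and CENPP were called with neither hairpin, at 0.24 and 0.15 for CENPN and 0.32 and 0.28 for CENPP. The fall of CENPP in EV_4OHT cells did not pass without EV replicate 51 (-0.41) or EV_4OHT replicate 53 (-0.58) or 55 (-0.62).

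Smart-Seq2 does not mark strand, so part of the reads counted to some of these genes may come from a neighbour. Exons of IPPK on the opposite strand cover 38.0% of the CENPP exon bases and exons of ADCY3 27.0% of those of CENPO. CMC2 covers 12.8% of CENPN and PRIMPOL 11.7% of CENPU, and SLC35F6, on the same strand, 7.0% of CENPA. Values of CENPP and CENPO are uncertain for that reason, and the share of reads involved was not tested.

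All 9 genes of the outer kinetochore, the layer that holds microtubules, fell in EV_4OHT cells, with a median log2 fold change of -2.24. With shAHCY_2 8 of the 9 were higher than in EV_4OHT cells and with shAHCY_4 7 of 9, with medians of 1.41 and 1.39. The falls of the NDC80 complex and the MIS12 complex differed in size, a difference described here and not tested. The 4 subunits of the NDC80 complex were at 5.54% (SPC25), 6.10% (NDC80), 6.16% (NUF2) and 8.88% (SPC24) of their EV mean in EV_4OHT cells. The 4 of the MIS12 complex, which anchors the NDC80 complex to CENPC and CENPT, were at 53.9% (NSL1), 61.3% (PMF1), 64.9% (DSN1) and 72.5% (MIS12).

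SPC25, which with SPC24 forms the end of the complex that faces the centromere, had 4.53, 6.15, 8.41 and 4.03 CPM in shAHCY_2 cells, 4.38, 3.51, 4.51 and 6.60 CPM in shAHCY_4 cells and 2.24, 1.26, 1.20 and 0.451 CPM in EV_4OHT cells, against 17.6, 24.2, 31.9 and 19.4 CPM in EV cells. The hairpin libraries lie between the other groups without overlap, and the log2 fold changes were -4.19 ± 0.31 in EV_4OHT over EV cells, 2.16 ± 0.34 with shAHCY_2 and 1.91 ± 0.34 with shAHCY_4 (edgeR adjusted p = 1.13e-10, 2.08e-04 and 5.25e-04). NDC80, the microtubule-binding subunit for which the complex is named, had 8.05, 8.65, 9.86 and 11.4 CPM in shAHCY_2 cells, 8.65, 7.57, 8.95 and 9.61 CPM in shAHCY_4 cells and 2.24, 1.34, 2.88 and 3.23 CPM in EV_4OHT cells, against 34.7, 39.6, 45.8 and 38.8 CPM in EV cells. Here too the hairpin libraries stand between EV_4OHT and EV without overlap, with log2 fold changes of -4.02 ± 0.18 in EV_4OHT over EV cells, 1.96 ± 0.19 with shAHCY_2 and 1.83 ± 0.19 with shAHCY_4. NUF2, the partner of NDC80 at the microtubule, fell by 4.00 and stood 1.94 and 1.63 above EV_4OHT with shAHCY_2 and shAHCY_4, and SPC24 fell by 3.49 and stood 1.76 and 1.51 above. Per kilobase of the longest annotated transcript, the mean levels of the 4 subunits in EV cells lay close together, at 16.3 CPM per kb for NUF2, 17.2 for SPC25, 18.3 for NDC80 and 22.7 for SPC24. In EV_4OHT cells they ran from 0.952 CPM per kb for SPC25 to 2.02 for SPC24.

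MIS12 had 17.1, 16.5, 25.8 and 16.7 CPM in shAHCY_2 cells, 12.5, 13.2, 13.5 and 17.4 CPM in shAHCY_4 cells and 16.1, 16.02, 14.9 and 18.05 CPM in EV_4OHT cells, against 23.6, 21.2, 26.2 and 18.8 CPM in EV cells. EV_4OHT lay below EV without overlap by 0.47 on the log2 scale (edgeR adjusted p = 0.00928), whereas the hairpin ranges overlap that of EV_4OHT, at 0.22 ± 0.15 and -0.19 ± 0.15. The highest shAHCY_2 value is that of replicate 59, and the shAHCY_2 estimate was 0.04 without it. DSN1 was called with both hairpins, at 0.47 and 0.53, as was PMF1, at 0.46 and 0.56. The shAHCY_2 call of PMF1 was lost without EV_4OHT replicate 56 (0.43) or shAHCY_2 replicate 60 (0.41). NSL1 was called with shAHCY_2 at 0.42 and not with shAHCY_4 at 0.16, and the call was lost without EV_4OHT replicate 54 (0.41) or 55 (0.36) or shAHCY_2 replicate 59 (0.32). With the GC trend removed it was 0.28, still called. Exons of DERL2 on the opposite strand cover 9.5% of MIS12. ZWINT, which links the KNL1 scaffold to the ROD-ZW10-ZWILCH complex, fell by 2.24 and rose by 1.41 with shAHCY_2 and 1.38 with shAHCY_4.

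**Figure D4:**
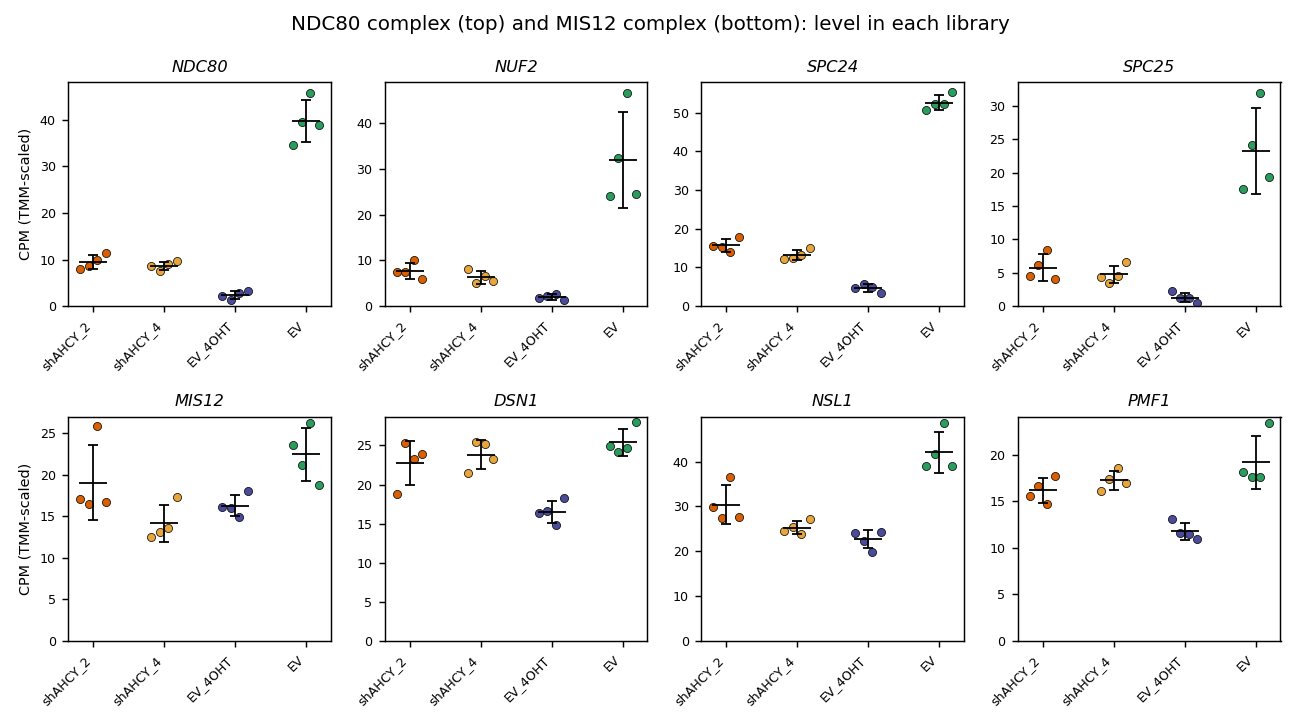
Level in CPM (vertical axis, from 0) of the 4 NDC80 complex genes (upper row) and the 4 MIS12 complex genes (lower row) in each library, with the mean ± SD of each group. NDC80 complex genes fall to 5.54 to 8.88% of the EV mean in EV_4OHT cells and MIS12 complex genes to 53.9 to 72.5%, and the hairpin libraries of the NDC80 complex stand between EV_4OHT and EV.

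The SKA complex, which keeps kinetochores on shortening microtubule ends, fell in all 3 subunits. SKA1 had 6.57, 4.65, 4.98 and 5.40 CPM in shAHCY_2 cells, 4.38, 6.30, 7.25 and 5.69 CPM in shAHCY_4 cells and 3.16, 1.57, 2.01 and 1.43 CPM in EV_4OHT cells, against 16.4, 19.2, 22.7 and 18.7 CPM in EV cells. The ranges of the hairpins lie between those of EV_4OHT and EV, with log2 fold changes of -3.24 ± 0.20 in EV_4OHT over EV, 1.40 ± 0.22 with shAHCY_2 and 1.56 ± 0.22 with shAHCY_4 (edgeR adjusted p = 8.00e-12, 2.49e-04 and 3.46e-05). SKA3, the partner that binds the NDC80 complex, had -2.91, 1.71 and 1.94 in the same comparisons. SKA2 had 67.3, 65.3, 94.2 and 57.2 CPM in shAHCY_2 cells, 59.8, 52.1, 55.4 and 59.1 CPM in shAHCY_4 cells and 45.2, 51.2, 42.6 and 54.6 CPM in EV_4OHT cells, against 79.1, 98.9, 138 and 86.6 CPM in EV cells. It fell by 1.06 and was called with shAHCY_2 at 0.55 ± 0.15 and not with shAHCY_4 at 0.23 ± 0.15. The call was lost without any 1 of EV_4OHT replicates 53, 54 and 55 or shAHCY_2 replicates 57, 58 and 59, at 0.39 to 0.59, with the lowest value without replicate 59, which holds the highest shAHCY_2 level.

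In the fibrous corona, the outermost layer of unattached kinetochores, and the ROD-ZW10-ZWILCH complex that docks dynein there, 3 of 4 genes fell in EV_4OHT cells. 1 of the 4, CENPF, was called with each hairpin, a count too small to set against the 3.91% and 7.58% of all genes tested. CENPE, the kinesin that carries chromosomes towards the spindle equator, had 5.83, 7.80, 12.1 and 4.71 CPM in shAHCY_2 cells, 8.52, 5.42, 7.55 and 6.93 CPM in shAHCY_4 cells and 4.74, 3.93, 4.15 and 4.81 CPM in EV_4OHT cells, against 28.99, 46.2, 40.7 and 26.5 CPM in EV cells. All EV_4OHT and all hairpin libraries lie below every EV library, with a log2 fold change of -3.01 ± 0.23 for EV_4OHT (edgeR adjusted p = 2.28e-10). Against EV_4OHT cells its estimates were 0.76 ± 0.25 with shAHCY_2, whose range overlaps, and 0.68 ± 0.25 with shAHCY_4, whose range does not, and neither passed (edgeR adjusted p = 0.0663 and 0.0745). The shAHCY_2 estimate was called without shAHCY_2 replicate 60 (0.95) and was 0.47 without replicate 59, and DESeq2 called both hairpins, at 0.78 with shAHCY_2 and 0.68 with shAHCY_4. Both were also called with library totals (0.80 and 0.73), no low-count filter (0.76 and 0.67) and the GC trend removed (0.56 and 0.66), and shAHCY_4 in the compared groups alone (0.67). CENPF, a large corona protein that binds microtubules and dynein regulators, fell by 2.71 and rose by 0.97 with shAHCY_2 and 1.26 with shAHCY_4. ZW10, which also serves in membrane traffic outside mitosis, had 43.01, 42.9, 51.8 and 44.7 CPM in shAHCY_2 cells, 43.96, 39.4, 37.7 and 44.4 CPM in shAHCY_4 cells and 44.8, 39.4, 35.8 and 33.7 CPM in EV_4OHT cells, against 46.4, 48.4, 44.2 and 40.8 CPM in EV cells. All 4 ranges overlap, and the change in EV_4OHT over EV cells was -0.23 ± 0.10 (edgeR adjusted p = 0.0583), which passed without EV replicate 52 (-0.27) or EV_4OHT replicate 53 (-0.30), and also with upper-quartile scaling (-0.27), library totals (-0.34) and limma-voom (-0.23). ZWILCH fell by 0.74 and did not pass with either hairpin, at 0.30 and 0.14.

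Among the spindle checkpoint genes 6 of 7 fell in EV_4OHT cells, with a median log2 fold change of -2.76. Against EV_4OHT cells 5 of 7 were higher with shAHCY_2 and 6 of 7 with shAHCY_4, with medians of 1.38 and 1.51. BUB1B, which encodes BUBR1, a subunit of the mitotic checkpoint complex, had 13.04, 11.9, 14.01 and 9.84 CPM in shAHCY_2 cells, 16.9, 14.9, 14.1 and 13.5 CPM in shAHCY_4 cells and 3.82, 2.98, 1.88 and 4.51 CPM in EV_4OHT cells, against 38.8, 36.7, 44.5 and 36.2 CPM in EV cells. Neither hairpin group overlaps EV_4OHT or EV, and the log2 fold changes were -3.58 ± 0.18 in EV_4OHT over EV, 1.89 ± 0.18 with shAHCY_2 and 2.18 ± 0.18 with shAHCY_4 (edgeR adjusted p = 9.60e-14, 3.47e-07 and 2.25e-08). In the same comparisons BUB1, the kinase that marks centromeric histone H2A, moved by -3.26, 1.65 and 1.75. TTK, the MPS1 kinase that starts the signal, fell by 3.38 in EV_4OHT cells and rose by 1.73 with shAHCY_2 and 1.51 with shAHCY_4.

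CDC20, the activator of the APC/C that the checkpoint sequesters, had 52.4, 43.3, 38.5 and 52.04 CPM in shAHCY_2 cells, 50.2, 65.5, 50.6 and 53.8 CPM in shAHCY_4 cells and 19.8, 18.4, 16.4 and 17.2 CPM in EV_4OHT cells, against 138, 111, 109 and 126 CPM in EV cells. Hairpin libraries stood at more than any EV_4OHT and less than any EV library, with log2 fold changes of -2.76 ± 0.12 in EV_4OHT over EV cells, 1.38 ± 0.12 with shAHCY_2 and 1.62 ± 0.12 with shAHCY_4. The table also lists 222 counts for the pseudogene CDC20P1 over all libraries, so a small share of reads may be divided between them. MAD2L1, which closes around CDC20, fell by 1.98 and rose by 1.12 with shAHCY_2 and 0.83 with shAHCY_4. BUB3, which brings BUB1 and BUBR1 to kinetochores and also acts in RNA splicing, fell by 0.27, and by 0.18 with the trend of counts with GC content removed. It was called with shAHCY_4 at 0.21 and not with shAHCY_2 at 0.15, and the call was lost without any 1 of EV_4OHT replicates 53, 54, 55 and 56 or shAHCY_4 replicates 62, 63 and 64, and with no low-count filter, at 0.20 to 0.22. MAD1L1, the kinetochore receptor of MAD2, had 41.4, 40.6, 28.95 and 35.6 CPM in shAHCY_2 cells, 35.3, 40.2, 39.4 and 32.3 CPM in shAHCY_4 cells and 43.2, 35.4, 37.2 and 35.2 CPM in EV_4OHT cells, against 46.4, 33.2, 33.4 and 41.99 CPM in EV cells. Its ranges overlap in all 4 groups, and its log2 fold change in EV_4OHT over EV cells was -0.04 ± 0.12, 0.03 without EV replicate 49 and 0.004 without EV replicate 52.

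The chromosomal passenger complex corrects wrong attachments through Aurora B kinase, and 3 of its 4 genes fell in EV_4OHT cells and were higher with each hairpin. BIRC5, or survivin, which brings the complex to centromeres, had 14.2, 14.9, 13.5 and 17.4 CPM in shAHCY_2 cells, 17.5, 18.97, 18.4 and 17.97 CPM in shAHCY_4 cells and 5.24, 4.24, 4.35 and 4.74 CPM in EV_4OHT cells, against 56.2, 57.5, 52.8 and 54.8 CPM in EV cells. The groups are separate, and the spread inside each is small beside the -3.58 ± 0.11 in EV_4OHT over EV and the 1.70 ± 0.11 and 1.97 ± 0.11 with shAHCY_2 and shAHCY_4 (edgeR adjusted p = 1.91e-17, 7.19e-10 and 4.56e-11). AURKB, the kinase, fell by 2.66 in EV_4OHT cells and rose by 1.14 with shAHCY_2 and 1.17 with shAHCY_4. CDCA8, or borealin, which docks the complex together with BIRC5, fell by 2.87 and rose by 1.03 with shAHCY_2 and 1.36 with shAHCY_4. INCENP, the scaffold of the complex, was barely detected, with 34 counts over the shAHCY_2, 41 over the shAHCY_4, 37 over the EV_4OHT and 72 over the EV libraries. It had 0.740, 0.930, 0.311 and 0.683 CPM in shAHCY_2 cells, 0.974, 0.877, 0.518 and 0.980 CPM in shAHCY_4 cells and 0.416, 0.314, 1.54 and 0.376 CPM in EV_4OHT cells, against 1.62, 0.751, 1.06 and 0.922 CPM in EV cells. The ranges overlap, with -0.67 ± 0.45 in EV_4OHT over EV cells, a value that became -1.56 and passed without EV_4OHT replicate 55, the highest of its group.

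At the spindle pole, AURKA, the kinase of mitotic centrosomes, and CENPJ, which sets centriole length, both fell in EV_4OHT cells and were both called with each hairpin. CENPJ had 9.16, 8.44, 9.96 and 8.26 CPM in shAHCY_2 cells, 9.99, 9.48, 10.1 and 7.58 CPM in shAHCY_4 cells and 6.07, 5.42, 5.02 and 5.79 CPM in EV_4OHT cells, against 13.1, 14.5, 9.09 and 13.2 CPM in EV cells. Its log2 fold changes were -1.16 ± 0.15 in EV_4OHT over EV, 0.68 ± 0.16 with shAHCY_2 and 0.73 ± 0.16 with shAHCY_4 (edgeR adjusted p = 1.16e-06, 0.00879 and 0.00286), and the hairpin ranges lie above that of EV_4OHT. AURKA had 57.3, 60.1, 44.6 and 61.1 CPM in shAHCY_2 cells, 56.9, 58.1, 57.8 and 58.4 CPM in shAHCY_4 cells and 44.6, 42.97, 46.9 and 45.95 CPM in EV_4OHT cells, against 87.5, 89.2, 81.1 and 88.8 CPM in EV cells. It stayed at 52.1% of its EV mean in EV_4OHT cells, and AURKB was at 15.8%. The shAHCY_2 range of AURKA overlaps that of EV_4OHT through replicate 59, the lowest of its group, and the call of 0.31 ± 0.09 was lost without any 1 of EV_4OHT replicates 53, 54, 55 and 56 or shAHCY_2 replicates 57, 58 and 60, and with no low-count filter or the compared groups alone, at 0.26 to 0.33. With shAHCY_4 the change was 0.36 ± 0.09.

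With either hairpin most of the genes stayed below their level in non-senescent cells. Against EV cells 33 of the 45 genes were lower and 0 higher in shAHCY_2 cells, where 23.6% of all genes tested were lower and 24.5% higher. In shAHCY_4 cells 35 were lower and 0 higher than in EV cells, where 25.8% were lower and 25.4% higher. At an unadjusted p under 0.05, 36 were lower with shAHCY_2 and 35 with shAHCY_4, and 0 were higher with either. DESeq2 gave 33 lower with shAHCY_2 and 35 with shAHCY_4, and 0 higher with either. The median over the members of the mean level was 55.5% of EV in shAHCY_2 cells, 46.5% in shAHCY_4 cells and 21.2% in EV_4OHT cells. The shAHCY_2 median is the value of MAD2L1, which replicate 59 raises. That library had 86.6 CPM of MAD2L1 where the other shAHCY_2 libraries had 53.9, 52.9 and 41.5. The difference between the medians of the hairpins was not tested. CENPE stood far below EV in all 3 groups given 4OHT, at 21.4% with shAHCY_2, 19.97% with shAHCY_4 and 12.4% in EV_4OHT. NUF2 was at 24.2% with shAHCY_2 and 19.7% with shAHCY_4, against 6.16% in EV_4OHT. NDC80 was at 23.9% with shAHCY_2 and 21.9% with shAHCY_4, against 6.10% in EV_4OHT.

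Some members, among them genes with small falls, had hairpin levels that did not differ from EV past the threshold. DSN1 was at 89.8% of EV with shAHCY_2 and 93.8% with shAHCY_4, against 64.9% in EV_4OHT cells. CENPO was at 85.8% with shAHCY_2 and 92.9% with shAHCY_4, against 70.2% in EV_4OHT cells. PMF1 was -0.24 and -0.15 on the log2 scale from EV with shAHCY_2 and shAHCY_4, and its shAHCY_2 difference passed without EV replicate 49 (-0.30) or shAHCY_2 replicate 60 (-0.31), with library totals (-0.32) and with the GC trend removed (-0.26). CENPQ had a larger log2 fold change, of -2.56 in EV_4OHT over EV cells. With shAHCY_2 it was -0.69 ± 0.28 from EV and not called, but -1.23 and called without shAHCY_2 replicate 59, and -0.84 and called without EV replicate 52. It was also called with upper-quartile scaling, library totals, limma-voom, no low-count filter and the GC trend removed, at -0.88 to -0.68. Replicate 59 had 22.6 CPM of CENPQ where the other shAHCY_2 libraries had 6.15, 8.33 and 8.70. MIS12 with shAHCY_2 was likewise -0.25 from EV and -0.42, called, without replicate 59, while with shAHCY_4 it was -0.66 and called.

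**Figure D5:**
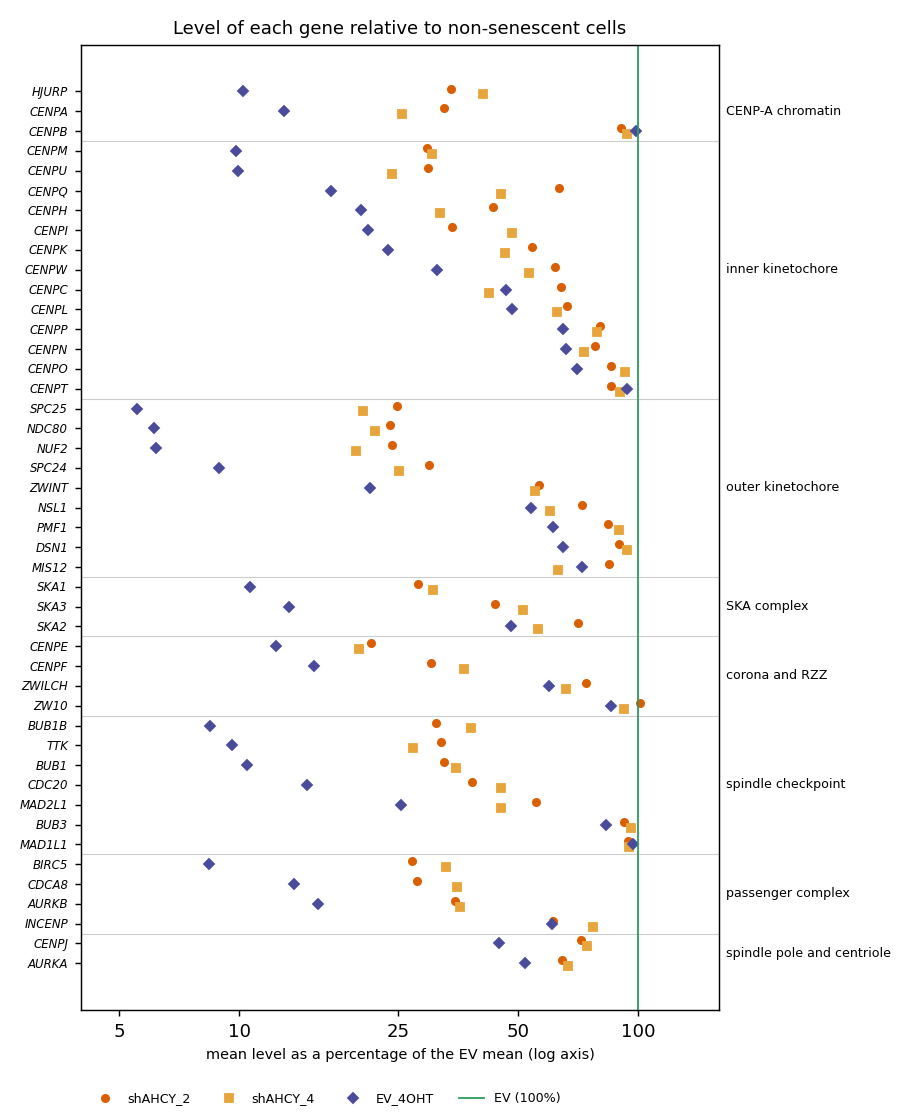
Mean level of each gene in shAHCY_2, shAHCY_4 and EV_4OHT cells as a percentage of its mean in EV cells (horizontal log axis), grouped by role, with the EV level as the line at 100%. The medians over the 45 genes are 55.5% with shAHCY_2, 46.5% with shAHCY_4 and 21.2% in EV_4OHT cells. The shAHCY_2 median is that of MAD2L1, whose mean is raised by replicate 59.

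Between the hairpins, 0 of the 45 genes passed the edgeR test in either direction, where 0.702% of all genes tested were higher and 0.54% lower in shAHCY_2 than in shAHCY_4 cells. At an unadjusted p under 0.05, 4 members were higher and 4 lower, and DESeq2 called 1, CENPC. CENPC had 8.42, 6.72, 10.9 and 8.33 CPM in shAHCY_2 cells, against 5.48, 4.62, 6.44 and 6.08 CPM in shAHCY_4 cells. Its ranges do not overlap, and the log2 fold change was 0.59 with a 95% interval of 0.22 to 0.96 (edgeR adjusted p = 0.0992). The other 3 higher in shAHCY_2 cells were MIS12 (0.41), SKA2 (0.32) and NSL1 (0.26), which were 0.24, 0.17 and 0.16 without shAHCY_2 replicate 59. The 4 lower were CENPI (-0.47, interval -0.89 to -0.06), CDCA8 (-0.33, interval -0.56 to -0.11), BIRC5 (-0.28, interval -0.48 to -0.07) and CDC20 (-0.24, interval -0.47 to -0.01). These intervals leave room for differences between the hairpins of up to -0.89 on the log2 scale in CENPI and -0.48 in BIRC5.

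Genes of the same machinery outside the 45 were read from lists. Of 20 other kinetochore and centromere genes, 16 were lower and 1 higher in EV_4OHT than in EV cells, against 26.8% and 26.7% of all genes tested. The list was 8 higher and 0 lower with shAHCY_2, and 10 higher and 1 lower with shAHCY_4, against EV_4OHT cells. Of all genes tested, 3.91% were higher and 3.07% lower with shAHCY_2, and 7.58% higher and 6.86% lower with shAHCY_4. PLK1, the mitotic kinase, moved by -3.51, SGO1, which guards centromeric cohesin, by -3.18, SPAG5, a spindle protein, by -2.98, and TRIP13, which takes the checkpoint complex apart, by -1.73. MAD2L1BP, the adaptor of TRIP13 for MAD2, was the 1 gene that was higher, by 0.83. Of 18 genes of the APC/C and its regulators, 5 were lower and 2 higher in EV_4OHT than in EV cells. The share lower is close to the 26.8% of all genes tested and the share higher is below their 26.7%, so the count is no result about this list. The falls of UBE2C, its ubiquitin-conjugating enzyme, and FBXO5, its inhibitor, were -2.88 and -2.97. These were the 2 genes higher with shAHCY_2 and with shAHCY_4, against 3.91% and 7.58% of all genes tested. With so few genes, that count is no result about this list. Of 11 cohesin and separase genes, 7 were lower and 0 higher in EV_4OHT than in EV cells, against the same 26.8% and 26.7%. Among the 7 were PTTG1, or securin (-2.36), CDCA5, or sororin (-2.33), and the ring subunit RAD21 (-0.92). PTTG1 and CDCA5 were the 2 of them higher with shAHCY_2 than in EV_4OHT cells. With shAHCY_4 the 3 higher were these and the ring subunit SMC1A, with none lower. Of all genes tested, the same 3.91% and 7.58% were higher with shAHCY_2 and shAHCY_4.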

How the data were processed

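Total RNA was turned into libraries by Smart-Seq2 with Nextera XT indexing, per the labels' protocols. The submitters' processing notes name CASAVA 1.8.2, TopHat2 2.0.11 and featureCounts 1.18.0 with hg19 or GRCh37. Settings for strand and for multi-mapping reads were not given in these sources. The authors deposited whole-number counts per Ensembl gene for 16 libraries, not normalized. Identifiers without a symbol held 0.503% of counts.

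The counts were fitted in edgeR 4.0.16 (R 4.3.3) with filterByExpr by group, TMM factors and 1 quasi-likelihood model of all 16 libraries. All p-values are two-sided and adjusted over 13526 genes by Benjamini-Hochberg, at a threshold of 0.05. The biological coefficient of variation was 11.9%. The SE of a log2 fold change is its size divided by the square root of F. Levels are CPM on TMM-scaled library sizes. Libraries of a group differed by more than counting noise in every pair (ratio of chi-square to degrees of freedom, 3.04 to 32.3). The highest ratio was that of EV replicates 49 and 51. The script was tested on simulated counts.

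Alternatives were other scaling factors, DESeq2 1.42.0, limma-voom 3.58.1, other filters, a GC correction, a fold threshold, fits of the compared groups alone and leaving out each library. The members and lists were chosen with earlier results of these data known. All 45 members may be named, and values in every library are given for the largest and smallest change of each role group. For CENPA, NDC80, CENPC and CDC20 they were added after the values were seen. Transcript lengths and exon overlaps come from a GRCh38 annotation and the promoters from RefSeq, another build than that of the counts.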

Additional observations from a re-analysis of the deposited data

Results flagged for a closer look

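In 180 sets of 4 libraries (45 genes in 4 groups), the highest or lowest library stood far from the other 3 in 12 sets (6.67%), where chance gives about 1 in 20. Among shAHCY_2 libraries, replicate 59 was high for CENPK at 28.9 CPM, CENPQ at 22.6 CPM and MIS12 at 25.8 CPM, and replicate 60 was high for HJURP at 16.8 CPM. Among shAHCY_4 libraries, replicate 62 stood apart for CENPL at 17.6 CPM and AURKB at 15.0 CPM. Among EV_4OHT libraries, replicate 54 stood apart for CENPH at 2.51 CPM and CENPQ at 4.32 CPM, replicate 55 for INCENP at 1.54 CPM and replicate 56 for TTK at 2.56 CPM. Among EV libraries, replicate 51 stood apart for CENPU at 47.6 CPM and replicate 52 for PMF1 at 23.4 CPM.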

How the results depend on the processing

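Of the 45 members, 40 were lower in EV_4OHT than in EV cells, and the other scalings, tools, filters and the GC correction gave 40 to 41, and leaving out 1 library 39 to 41. With shAHCY_2 over EV_4OHT cells 31 became 29 to 32, and 27 to 29 without 1 library. With shAHCY_4 30 became 29 to 32, and 27 to 30 without 1 library. Against EV cells 33 with shAHCY_2 became 33 to 37 (33 to 36 without 1 library) and 35 with shAHCY_4 became 34 to 35 in both. Between the hairpins the count stayed 0 without any 1 library, and DESeq2 gave 1. Asking for a log2 change over 1 (glmTreat) gave 26 in EV_4OHT over EV cells, 9 with shAHCY_2 and 9 with shAHCY_4 over EV_4OHT, and 18 with shAHCY_2 and 17 with shAHCY_4 over EV cells. Signs turned for CENPB in EV_4OHT over EV cells (0.10 without EV replicate 52, 0.04 without EV_4OHT replicate 55, and down to -0.15 without other libraries), for MAD1L1 (0.03 without EV replicate 49, 0.004 without EV replicate 52, down to -0.12) and for CENPC with shAHCY_4 over EV_4OHT (0.014 without EV_4OHT replicate 54, down to -0.26), none of them called, and the cause was not tested.

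With library totals the median of all genes was -0.13 in EV_4OHT over EV cells, against -0.02 with TMM, so changes there are relative to that shift. The share of higher among all called genes was then 38.2% against 49.9% with TMM in that comparison, 69.8% against 56% with shAHCY_2 over EV_4OHT and 67.4% against 52.5% with shAHCY_4. No paired analysis was possible because the replicate numbers are not shared between groups. Counts of a few per library limit CENPA and INCENP.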
